A study of Mus musculus with 2 samples.

Results

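The serpin genes of mouse epidermis, apart from the Serpinb3 cluster, were compared between skin lacking the vitamin D receptor (VDR) and the calcium-sensing receptor (CaSR) in keratinocytes and control skin. Members were all probes whose array symbol begins with Serpin, leaving out Serpinb3a, Serpinb3b, Serpinb3c and Serpinb3d. They came to 58 probes for 49 genes, out of 25697 probes for 17871 genes. By the letter after Serpin, 19 genes were of clade A, 20 of clade B and 10 of the 7 further clades C to I. Clade F had 2 of these 10, clades E and I had 2 each, and clades C, D, G and H had 1 each.

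The DKO group carried the genotype VDR fl/fl CaSR fl/fl with Cre driven by keratin 14 (K14). Its littermate controls, CON, had the same floxed alleles and no Cre. All mice were C57BL6 and were taken at postnatal day 5, and the back-skin epidermis was lifted off with dispase. RNA of 3 mice per group was combined and read on 1 Illumina array per group. One protocol sentence calls the knockout pool a VDR knockout, whereas the titles and genotypes give both genes. The K14 promoter is active in basal keratinocytes, and their descendants inherit the deletion, whereas cells of other lineages, such as Langerhans cells, T cells and melanocytes, keep both genes. There is no replicate, so no difference below has an error or a test, and a single array per group sets how precise any value can be. The only measure of scatter was the pooled SD between detected probes of the same gene, 0.24 on the log2 scale over 1767 genes.

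Serpins are proteins with a shared fold in which an exposed loop serves as bait for a protease. The inhibitory members are cleaved by their target, trap it and are used up, whereas others act as hormone carriers or chaperones. Clade A holds mainly secreted proteins such as alpha-1-antitrypsin, and clade B holds mainly proteins kept inside the cell. In epidermis, inhibitors of these and other families hold back the proteases that shed corneocytes, activate precursors and dissolve fibrin.

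On the DKO array 10441 of 25697 probes (40.6%) were detected, against 10760 (41.9%) on the CON array, with median raw signals of 138 and 140.5. A probe counted as detected when its detection p, a comparison with the negative controls of the same array, was under 0.01. Each of the 3 Vdr probes was detected on DKO and on CON, and they differed by -0.82 to -0.12 (log2, DKO minus CON). The Casr probe was detected on neither, with a detection p of 0.941 on DKO and 0.0338 on CON. Neither gene's probes could be placed inside or outside the deleted exons, so they do not check the knockout. Hair follicle genes were lower on DKO, with 6 of 10 detected genes at least 2-fold lower, against 1.39% of all detected genes. Their summed normalized signal was 8060 on DKO against 23000 on CON. Ddx3y, a Y-linked gene, was 10.7-fold higher on DKO by its brightest probe, and its other probes were detected on neither array. In the authors' deposited table the brightest Ddx3y probe differed by 2.59 (log2). The part of the hair follicle genes or of Ddx3y in the serpin results was not tested. In whole epidermis, a change in the number of cells of a type and a change in RNA per cell cannot be told apart.

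Most serpins were near the background of the arrays. Of the 49 genes, 14 (28.6%) had their brightest probe detected on at least 1 array, against 47.4% of all genes. Of the 58 probes, 16 (27.6%) were detected on at least 1 array, against 43.7% of all probes. These were 13 on both arrays, 1 on DKO only and 2 on CON only. Across all probes, 1.79% were detected on DKO only and 3.04% on CON only. Detection reached 6 of 19 genes in clade A, 6 of 20 in clade B, 1 of 2 in clade F and 1 of 1 in clade H. No probe of clades C, D, E, G or I was detected.

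**Figure D1:**
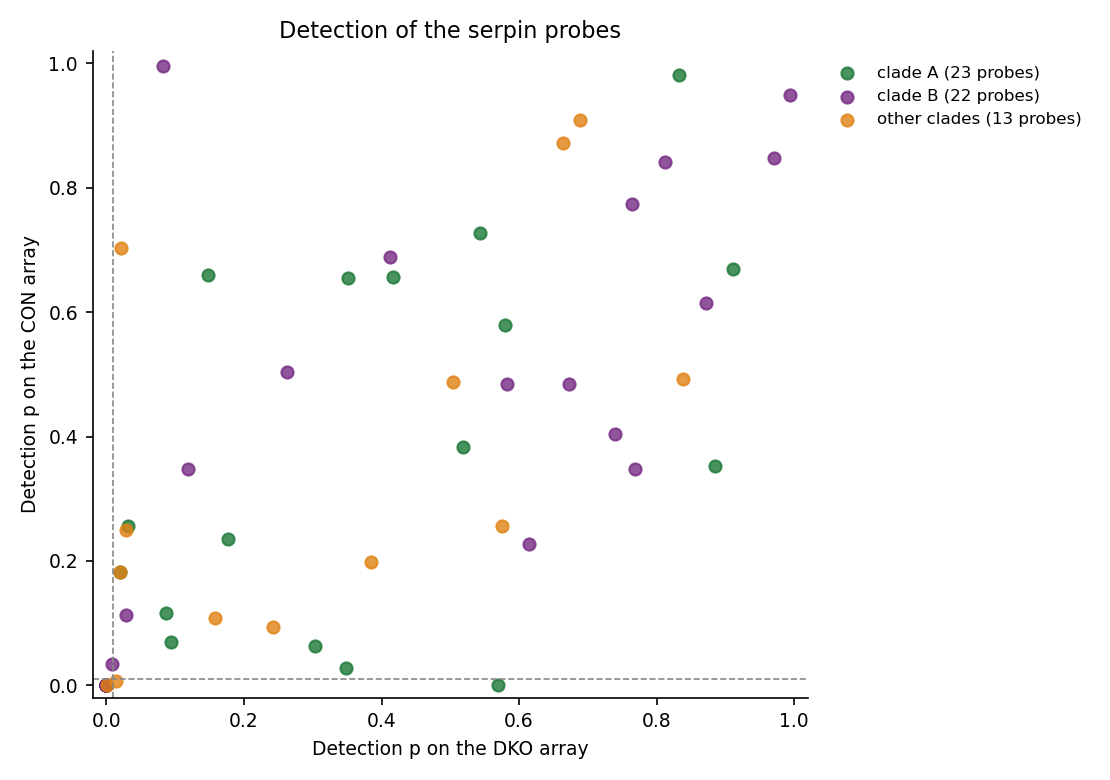
Detection p of each of the 58 serpin probes on the DKO array (horizontal axis) and on the CON array (vertical axis), coloured by clade. Dashed lines mark a detection p of 0.01. The 13 probes detected on both arrays lie together at the lower left corner, and 42 probes lie outside both lines.

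Among the 14 detected genes, 1 was at least 2-fold higher in DKO (7.14%) and 1 was at least 2-fold lower (7.14%). The shares over all 8472 detected genes were 1.05% for 2-fold higher and 1.39% for 2-fold lower. With dim signals raised to the lowest detected signal of their array (log2 5.38 on DKO and 5.28 on CON), 1 serpin was at least 2-fold higher, against 0.779% of all detected genes, and 0 were lower, against 1.03%. A single gene in each direction gives no reading against that background. Any higher value in DKO was seen for 8 of the 14 (57.1%), against 47.1% of all detected genes. The median difference was 0.10 (log2) for the 14 serpins and -0.02 for all detected genes. By clade, the median was 0.10 over the 6 detected clade A genes, 0.58 over the 6 of clade B and -0.14 over Serpinf1 and Serpinh1. With dim signals raised in the same way, the clade B median was 0.45. Members of a clade are not replicates, and the difference between clades was not tested.

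**Figure D2:**
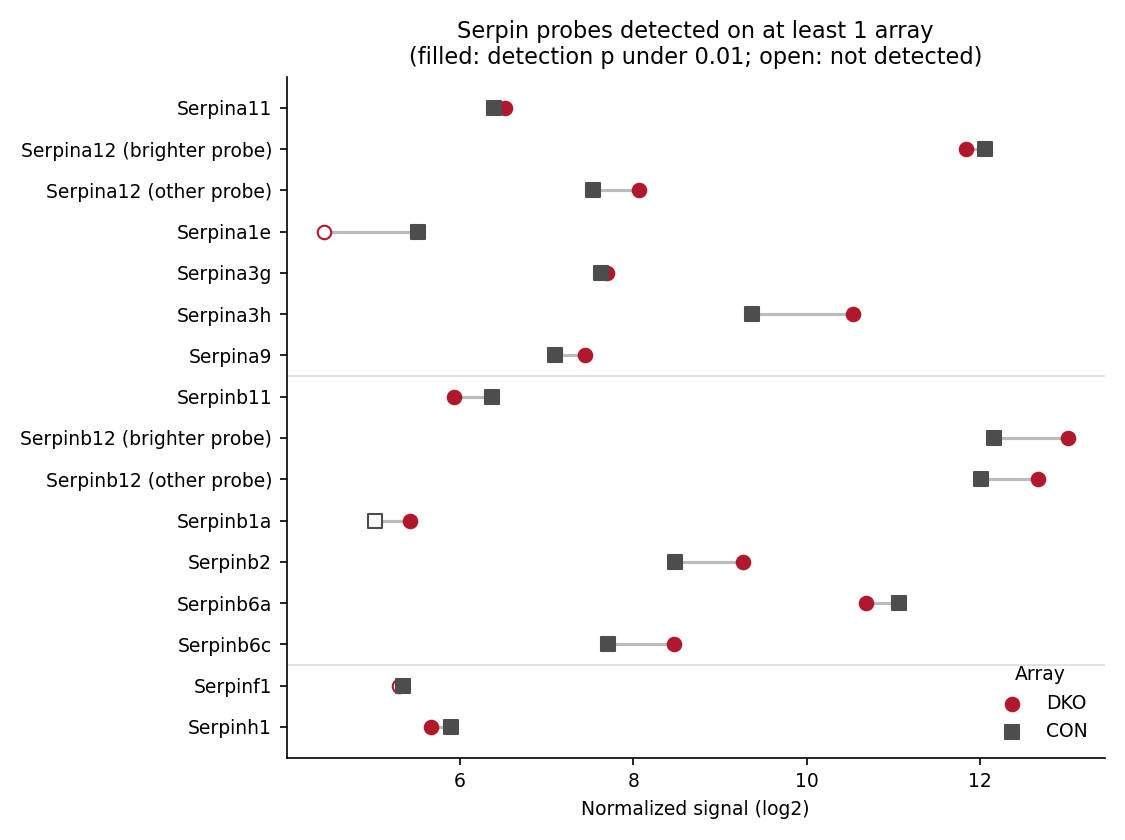
Normalized signal (log2) of each serpin probe detected on at least 1 array, with DKO as circles and CON as squares. Open symbols mark a detection p of 0.01 or more. Levels of different probes cannot be set against each other, and the length of each line is the difference between the arrays.

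Serpina3h of clade A had the largest difference of the detected members. It belongs to the Serpina3 group, the mouse relatives of human alpha-1-antichymotrypsin, and RefSeq lists it as a transcribed pseudogene. Its raw signal was 1500.4 on DKO against 819.5 on CON, with a detection p of 0 on both arrays. After normalization it read 10.54 on DKO and 9.37 on CON (log2), a difference of 1.17 or 2.25-fold. Serpina3h was the only member past 2-fold with detection on both arrays. In the authors' deposited table the signals were 1946.2 on DKO and 984.1 on CON, a difference of 0.98 (log2), which is just under 2-fold.

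Of the other Serpina3 genes chosen by symbol, Serpina3g was detected. Serpina3g, an inhibitor of cysteine cathepsins also known as Spi2A, had raw signals of 307.2 on DKO and 321.6 on CON. It read 7.70 on DKO and 7.63 on CON after normalization (log2), a difference of 0.07 whose sign turned to -0.03 under median scaling. Serpina3c, Serpina3k, Serpina3m and Serpina3n were detected on neither array. Their detection p was 0.303, 0.519, 0.885 and 0.0865 on DKO and 0.0639, 0.383, 0.352 and 0.117 on CON, in that order. The genes of this group are near-identical copies. Probe sequences were not used here, so a probe named for one copy may also read another.

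Serpina12 (vaspin) is a secreted inhibitor of kallikrein 7, the protease of corneocyte shedding. Its brightest probe had a raw signal of 3556.6 on DKO and 4624.5 on CON, and after normalization 11.84 and 12.06 (log2), a difference of -0.22. A dimmer probe of the gene had raw signals of 363.7 on DKO and 308.7 on CON and a difference of 0.53 after normalization. The probes of Serpina12 therefore disagreed in direction. Their mean difference was 0.16, and no direction is given for the gene. Klk7 itself, singled out here as the target of Serpina12 after its values were seen, differed by 0.10.

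Serpina9 and Serpina11 were detected on both arrays with a detection p of 0. Serpina9, known in human as a gene of germinal centre B cells, had raw signals of 274.5 on DKO and 257.3 on CON and a difference of 0.34 (log2). Serpina11 had raw signals of 198.3 on DKO and 199.6 on CON and a difference of 0.13. Neither passed 2-fold.

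Serpina1e was the gene at least 2-fold lower by its normalized values. It encodes one of the mouse copies of alpha-1-antitrypsin, a plasma protein made mainly in liver. Its raw signal was 125.1 on DKO, with a detection p of 0.569, against 159.4 on CON, with a detection p of 0.00125. The normalized signals were 4.43 on DKO and 5.52 on CON (log2), a difference of -1.09. Because DKO was not well above background, only a bound can be given, at least 1.10-fold lower. The 6 probes of Serpina1a, Serpina1b, Serpina1c and Serpina1d, close copies of Serpina1e, were detected on neither array. Of the 6 liver and plasma markers, Apoa1 was detected and Alb was not, with a detection p of 0.128 on DKO and 0.203 on CON.

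The 5 clade A genes not yet described were detected on neither array. Serpina5, the protein C inhibitor, had a detection p of 0.0201 and 0.147 on DKO and of 0.182 and 0.66 on CON for its pair of probes. Serpina10, the inhibitor that works with protein Z on a clotting factor, had 0.832 on DKO and 0.981 on CON. The hormone carriers Serpina6, which binds corticosteroids, and Serpina7, which binds thyroid hormone, had 0.417 and 0.911 on DKO and 0.657 and 0.67 on CON. Serpina4-ps1, a pseudogene by its name, had 0.177 on DKO and 0.236 on CON.

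Among the members chosen by symbol, clade B held 4 detected genes higher (66.7%) and 2 lower in DKO, none by 2-fold. Clade A had the same counts by the brightest probe of each gene, 4 higher (66.7%) and 2 lower. Of all detected genes, 47.1% were higher in DKO. Serpinb12, an intracellular inhibitor of trypsin-like proteases, was measured by a pair of probes. Its main probe had a raw signal of 8072.8 on DKO and 4977.5 on CON. After normalization it read 13.01 on DKO and 12.16 on CON (log2), a difference of 0.85 or 1.81-fold. The other Serpinb12 probe read 6218.8 on DKO and 4484.4 on CON, a difference of 0.66 or 1.58-fold. Both Serpinb12 probes were thus higher in DKO, and the main one lay just outside the range from -0.84 to 0.80 that held the central 95% of detected genes.

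Serpinb2, the urokinase inhibitor PAI-2 of differentiating keratinocytes, had raw signals of 682.4 on DKO and 493.6 on CON. It read 9.27 on DKO and 8.48 on CON (log2), a difference of 0.79 or 1.72-fold. Serpinb6c had raw signals of 442.9 on DKO and 332.4 on CON and normalized signals of 8.47 and 7.71, a difference of 0.77 or 1.70-fold. Serpinb12, Serpinb2 and Serpinb6c were each more than 1.5-fold and less than 2-fold higher in DKO by these values. Serpinb6c was under 1.5-fold with no background correction, at 0.54 (log2), and in the authors' deposited table, at 0.56. At a 1.5-fold rule, 4 of the 14 serpins were higher, these 3 and Serpina3h, beside 6.09% of all detected genes. Serpina1e was then the 1 lower serpin, beside 7.37% of all detected genes.

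Serpinb6a and Serpinb11 had lower values in DKO. Serpinb6a, an intracellular inhibitor of trypsin-like proteases and cathepsin G, had raw signals of 1651.3 on DKO and 2375.9 on CON and a difference of -0.37 (log2), 1.29-fold lower. It is a neighbour of Serpinb6c, whose difference had the opposite sign. Serpinb11 had raw signals of 169.1 on DKO and 198.1 on CON and a difference of -0.43. Serpinb1a, which inhibits neutrophil elastase and related proteases, was detected on DKO only. Its raw signal was 152 on DKO, with a detection p of 0.00752, against 144.9 on CON, with a detection p of 0.0338. With CON at its bound, the Serpinb1a value was 0.13 (log2) or 1.10-fold higher. With no background correction the Serpinb1a difference was 0.10, so that bound is not a firm minimum. Of the 9 macrophage, neutrophil and mast cell markers, 2 were detected, and the neutrophil genes Elane and Mpo were not. The summed signal of these markers was 360 on DKO and 345 on CON, and its part in the Serpinb1a value was not tested.

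Several clade B serpins known from keratinocytes were detected on neither array. Serpinb5 (maspin) had a detection p of 0.769 on DKO and 0.347 on CON. Serpinb7, whose loss in human causes a palmoplantar keratosis, had 0.412 on DKO and 0.689 on CON. Serpinb13, an inhibitor of lysosomal cysteine cathepsins, had 0.994 on DKO and 0.949 on CON. These probes gave no signal above the negative controls, which sets no limit on the transcripts, since how well each probe works is unknown here. Serpinb8 had 0.0288 on DKO and 0.113 on CON, and Serpinb10 had 0.119 on DKO and 0.347 on CON. Serpinb9, the granzyme B inhibitor, had 0.812 on DKO and 0.841 on CON, and the other 6 probes of the Serpinb9 group were also undetected. One of them carries the array symbol Serpinb9f and is Serpinb9g in RefSeq. Serpinb1b, Serpinb1c and Serpinb6b had a detection p of 0.263, 0.0827 and 0.739 on DKO and of 0.504, 0.995 and 0.404 on CON, in that order.

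Keratinocyte markers were read beside the clade B values. Of the 9 markers of differentiated keratinocytes, 8 were detected, 5 higher and 3 lower in DKO and none by 2-fold, with a median difference of 0.28 (log2). Their summed normalized signal was 74100 on DKO and 68900 on CON. The largest differences were Dsc1 (desmocollin 1, of the desmosome) at 0.91, Grhl3 (a transcription factor of barrier formation) at 0.72 and Krt1 (keratin of the suprabasal layers) at 0.64. The 7 basal keratinocyte markers were all detected, with a median of 0.00 and sums of 58100 on DKO and 57400 on CON. The part of these markers in the serpin values was not tested.

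The serpins of clades A and B sit in gene clusters. Clade B members lie in 2 clusters, 8 genes on chromosome 1 and 12 on chromosome 13, and 18 clade A genes lie on chromosome 12. On chromosome 1, 3 of 8 genes were detected, Serpinb12, Serpinb11 and Serpinb2, with a median difference of 0.79 (log2). On chromosome 13, 3 of 12 were detected, Serpinb1a, Serpinb6c and Serpinb6a, with a median of 0.40, or 0.13 with the dim Serpinb1a signal at its bound. The 6 detected clade A genes all lie on chromosome 12, with a median of 0.10. The 4 Serpinb3 genes that were left out lie between Serpinb13 and Serpinb11 on chromosome 1. Their main probes differed by 1.04 to 3.65, with Serpinb3d not well above background on CON. On either side of them Serpinb13 was not detected, which gives no direction, and Serpinb11 had a lower value in DKO. The Serpinb11 difference came from a single dim probe and ran from -0.50 to -0.17 over the settings. Every other detected gene of the chromosome 1 cluster, Serpinb12, Serpinb2 and the Serpinb3 genes, had a higher value in DKO. The exception thus rests on that probe, and a shared direction along the cluster was not tested.

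**Figure D3:**
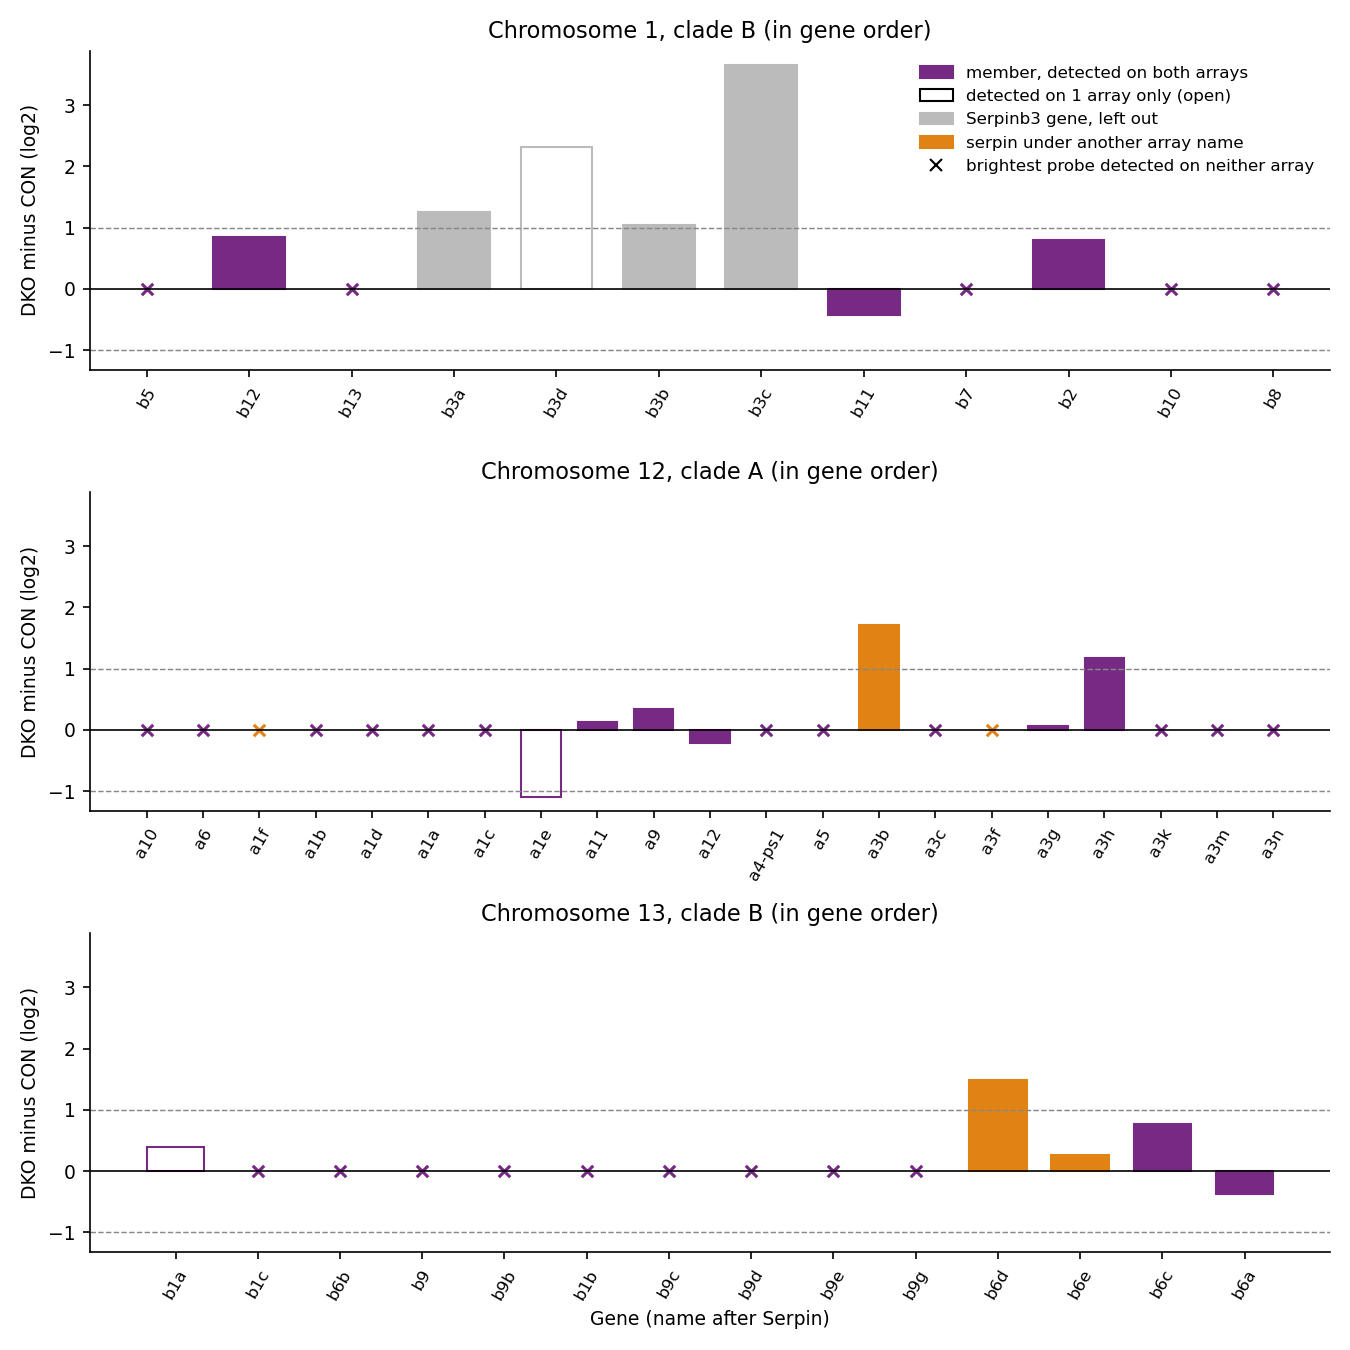
Difference DKO minus CON (log2) of the clustered serpins in their order on chromosomes 1, 12 and 13, equally spaced. Crosses mark genes whose brightest probe was detected on neither array, open bars genes detected on 1 array only, and dashed lines 2-fold. Grey bars are the Serpinb3 genes and orange marks are serpins listed under another array name.

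Promoters of the members were read because the clade B genes of chromosome 1 lie in 1 cluster and include a pair of genes with nearly equal differences, Serpinb12 and Serpinb2. RefSeq start sites of build GRCm38.p6 gave windows of 250 bases before the start for 38 of the 49 genes. The letters TGANTCA, a relaxed form of the site of AP-1, a transcription factor active in differentiating keratinocytes, were searched on both strands. They stood in 6.75% of all 32851 windows. All 7 of the chromosome 1 clade B genes with a window held them in at least 1 window, against 0 of 11 on chromosome 13. Serpinb6c is among those 11, and its difference of 0.77 (log2) was close to the 0.79 of Serpinb2. Another 4 of 11 clade A genes on chromosome 12 held the letters, Serpina1a to Serpina1d, and 0 of 8 genes of the other clades. These counts are per gene, over 1 or more windows, whereas the 6.75% is per window. The motif was chosen with earlier results known, and the cluster arose by duplication, so its promoters are not independent. Each match on chromosome 1 is shown with 12 bases on either side, and the capitals mark the TGANTCA letters.
Serpinb5 (chr1:106861023-106861053, + strand): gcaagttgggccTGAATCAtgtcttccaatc
Serpinb12 (chr1:106934392-106934422, + strand): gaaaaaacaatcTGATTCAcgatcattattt
Serpinb11 (chr1:107362121-107362151, + strand): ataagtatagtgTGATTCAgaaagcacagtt
Serpinb11 (chr1:107362226-107362256, + strand): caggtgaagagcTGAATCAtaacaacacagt
Serpinb7 (chr1:107422632-107422662, + strand): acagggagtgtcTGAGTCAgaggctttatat
Serpinb2 (chr1:107511317-107511347, + strand): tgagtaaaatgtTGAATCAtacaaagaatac
Serpinb10 (chr1:107528937-107528967, + strand): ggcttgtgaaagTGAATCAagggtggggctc
Serpinb8 (chr1:107589971-107590001, + strand): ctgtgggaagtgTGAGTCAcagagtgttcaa
The matches lie 140 bases before the start in Serpinb5, 45 in Serpinb12, 181 and 76 in Serpinb11, 45 in Serpinb7, 94 in Serpinb2, 54 in Serpinb10 and 23 in Serpinb8. Because every chromosome 1 gene with a window held the letters, they cannot be set against detection or direction within the cluster.

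The strict AP-1 form TGAGTCA, which is contained in TGANTCA, stood in 4.46% of all windows and in those of Serpinb7, Serpinb8 and Serpina1a to Serpina1d. None of these 6 genes was detected. The half-site AGGTCA, bound by nuclear receptors, stood in 14.0% of windows and in those of 9 of the 38 members, among them Serpinb12, Serpina11 and Serpinf1 of the detected ones. The form GGTTCA stood in 8.85% of windows and in those of Serpina3c and Serpinb1c. The direct repeat of AGGTCA with a spacer of 3 bases, bound by VDR with its partner RXR and containing AGGTCA at each end, stood in 2 of all windows and in 0 of the members' windows. All of these were searched on both strands, and TATAAA on the gene's strand only. TATAAA stood in 7.59% of windows and in those of Serpinb12 and Serpinb2 among the detected members. A match is a run of letters, and a window without one says only that the letters are not there. The windows of Serpinb12 and Serpinb2, the clade B genes of chromosome 1 with the largest differences, are shown whole, with the TGANTCA match in capitals. Each gene has 2 windows, and the one with the earlier start is printed. The other Serpinb12 window holds no TGANTCA and is the one with AGGTCA, and the other Serpinb2 window overlaps the printed one and holds the same match.
Serpinb12 (chr1:106934199-106934448, + strand): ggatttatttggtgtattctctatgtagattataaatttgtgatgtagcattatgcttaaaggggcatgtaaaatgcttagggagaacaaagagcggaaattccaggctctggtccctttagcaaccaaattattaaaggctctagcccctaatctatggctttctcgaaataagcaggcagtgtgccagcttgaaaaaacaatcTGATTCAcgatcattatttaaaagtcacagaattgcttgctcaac
Serpinb2 (chr1:107511173-107511422, + strand): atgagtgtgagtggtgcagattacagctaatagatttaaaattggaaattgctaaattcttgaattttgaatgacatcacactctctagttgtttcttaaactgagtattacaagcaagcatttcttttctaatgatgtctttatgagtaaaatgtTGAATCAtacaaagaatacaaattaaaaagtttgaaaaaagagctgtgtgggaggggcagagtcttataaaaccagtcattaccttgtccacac

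The other clades held 10 genes and 2 detected ones. Serpinh1 is the chaperone of collagen in the endoplasmic reticulum and inhibits no protease. Its raw signal was 159.6 on DKO, with a detection p of 0.00125, against 174.2 on CON, with a detection p of 0, and its difference was -0.23 (log2). Serpinf1 (PEDF), a secreted protein that does not act as an inhibitor and is known for holding back vessel growth, was detected on CON only. Its raw signal was 148.7 on DKO, with a detection p of 0.0138, against 153.8 on CON, with a detection p of 0.00627. The Serpinf1 difference was -0.05, and its bound allows no fold. Neither gene passed 2-fold.

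Serpinh1 was read beside genes that work with it in collagen secretion. Of 13 such genes, 8 were detected, 5 higher and 3 lower and none by 2-fold, with a median of 0.07 (log2). The detected genes with the largest differences were Plod2, a lysyl hydroxylase that was detected on CON only and whose bound allows no fold, Crtap, of the prolyl 3-hydroxylase complex, at 0.52 and Col7a1, the anchoring fibril collagen, at 0.37. Col1a1, Col1a2 and Col3a1, the main collagens of dermis, were detected on neither array, nor were P4ha1 and Plod1. Of 10 fibroblast markers 5 were detected, and their summed signal was 991 on DKO and 1160 on CON. These were 3 higher and 2 lower, with a median of 0.13. Mgp, a calcification inhibitor, was at -1.23 and past 2-fold, whereas Col6a1 was at 0.98 and Col5a1 at -0.54, both collagen chains. Over all detected genes, 1.39% were at least 2-fold lower. In the authors' deposited table Mgp was at -0.82, which is under 2-fold, Col6a1 at 0.52 and Col5a1 at -0.39. The part of fibroblasts in the Serpinh1 value was not tested.

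The following genes of these clades were detected on neither array. Serpine2 (protease nexin 1), an inhibitor of thrombin and urokinase, had a detection p of 0.838 on DKO and 0.492 on CON. Serpinc1 (antithrombin) had 0.385 and 0.575 on DKO and 0.199 and 0.256 on CON for its pair of probes, and Serpind1 (heparin cofactor II) had 0.504 on DKO and 0.487 on CON. Serping1 (the inhibitor of complement C1) had 0.0288 on DKO and 0.249 on CON. Serpini1 (neuroserpin) had 0.664 on DKO and 0.872 on CON, and Serpini2 had 0.0213 on DKO and 0.703 on CON. The 3 probes of Serpinf2, the plasmin inhibitor, had detection p values from 0.0201 up on DKO and from 0.094 up on CON.

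Over the 42 undetected probes the detection p ran between 0.0201 and 0.994 on DKO and between 0.0276 and 0.995 on CON. Their raw signals lay between 110.9 and 146.5 on DKO and between 112.1 and 145.7 on CON. Of these probes, 6 (14.3%) had a detection p under 0.05 on DKO and not on CON, against 7.01% of all undetected probes. They belong to Serpina1b, Serpina5, Serpinb8, Serpinf2, Serping1 and Serpini2. The reverse held for 1 probe (2.38%), another probe of Serpina1b, against 4.28% of all undetected probes. The pair of Serpina1b probes thus fell on opposite sides, and no difference is read from signals this dim.

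Targets and partners of the serpins were mostly within 2-fold. Of 30 proteases that serpins are known to inhibit, 11 were detected, 7 higher and 4 lower in DKO and none by 2-fold, with a median of 0.17 (log2). The largest differences were Klk5, a kallikrein of corneocyte shedding, at 0.63, Prss8 (prostasin, a membrane protease of the barrier) at 0.55 and Htra1 at 0.52. Plau (urokinase), singled out as the target of Serpinb2 after its values were seen, differed by 0.45. Plat (tissue plasminogen activator), Plg (plasminogen), Elane, Ctsg, Gzma and Gzmb were among the 19 proteases detected on neither array. Of 14 partners in the plasminogen and clot pathways, 7 were detected, 5 higher and 2 lower, with a median of 0.27. Thbd (thrombomodulin, which turns thrombin towards protein C) was the 1 partner past 2-fold by its normalized values, beside 1.05% of detected genes. With CON not well above background, it was at least 1.57-fold higher. S100a10, a plasminogen receptor subunit, differed by 0.69 and Hpse (heparanase) by 0.46, and Plaur, the urokinase receptor, was not detected.

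Protease inhibitors outside the serpins were set beside them. Of 15 measured, 11 were detected, 7 higher and 4 lower, with 2 at least 2-fold higher and a median of 0.35 (log2). Wfdc12 differed by 2.21, Wfdc21 by 1.19 and Wfdc18 by 0.82, all genes of the whey acidic protein family of small secreted inhibitors. Spink5 and A2m were not measured in the tables used here. The lists were chosen with earlier results of these arrays known, so their counts are a description and not independent evidence.

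**Figure D4:**
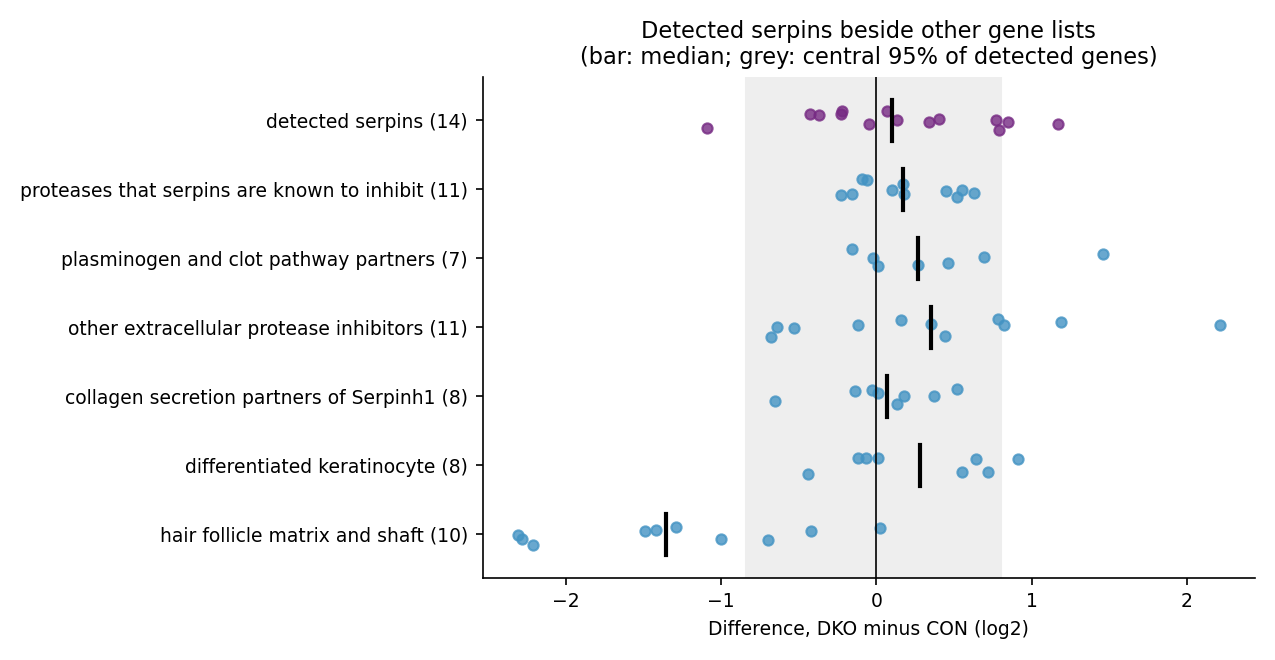
Difference DKO minus CON (log2) of the detected serpins and of the detected genes in 6 lists, 1 point per gene with its number in brackets. Bars give medians and shading the central 95% of all detected genes. The serpin points centre near the median of 0.10, and the hair follicle genes lie lowest, with a median of -1.36.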

How the data were processed

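The authors deposited raw signal intensity and a detection p-value per probe, per the file headers, and a table of normalized intensity on a linear scale. Per the submitters' processing notes, the tool was GenomeStudio 2011.1. How that table was normalized is unstated in the labels and headers, and the values of the series table differ from it at 0 probes (tolerance 0.05 signal units).

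Here the raw values were background-corrected (normexp with detection p-values, offset 16), quantile-normalized and put on a log2 scale, using limma 3.58.1 under R 4.3.3. A gene is its brightest probe, detected at a detection p under 0.01 on at least 1 array. A fold is DKO over CON of normalized linear signal, called at 2-fold. Where 1 group was dim, its signal was raised to the lowest detected signal of its array and the fold is a bound. With 1 array per group, no test between groups could be run. Of the 58 probes, 37 were named by gene identifier, 20 by accession and 1 by symbol in a RefSeq table of GRCm38.p6, which also gave gene order. Every detected member was named with its values and the rest by detection p, apart from a withheld item that is counted but not reported here. Further genes named are the 3 of each list with the largest difference and undetected list genes. Members, lists and motifs were chosen with earlier results of these data known. The steps were tested on simulated data. Alternatives were the background correction, offset, normalization, detection filter, probe rule, size rule and the authors' table.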

Additional observations from a re-analysis of the deposited data

How the results depend on the processing

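No paired analysis was possible because each group has 1 array, and no array could be left out. The count of serpins at least 2-fold lower was 0 with no background correction, an offset of 50, the authors' deposited table, detection on both arrays and dim signals at their bound. The bound and detection on both arrays act on Serpina1e by construction, as it was not detected on DKO. The count at least 2-fold higher was 0 in the authors' deposited table and 4 at the 1.5-fold rule. The median of all detected serpins was 0.01 with median scaling, 0.33 with a detection filter of 0.05 (20 genes) and 0.01 with no filter (49 genes). The clade B median was 0.32 with no background correction, 0.44 with an offset of 50, 0.36 in the authors' deposited table, 0.40 with the filter of 0.05, 0.77 with detection on both arrays, -0.01 with no filter and 0.45 with dim signals at their bound. It was above the clade A median in each of these settings except with no filter, where clade A stood at 0.01. The median of the other clades was 0.46 with the filter of 0.05 and 0.04 with no filter. Of the values of single genes, 9 moved by more than the SD between probes. The detection filters cannot change a gene's value, so they show nothing of its stability. Serpina12 (-0.33 to 0.16) and Serpina3g (-0.03 to 0.07) took both signs. Across the detected genes, 89 passed 2-fold upwards and 118 downwards, against 71 and 149 with median scaling, which put the median of all genes at -0.13. The counts were 23 and 27 with no background correction, 43 and 58 with an offset of 50, 24 and 28 in the authors' deposited table, 57 and 77 with detection on both arrays and 516 and 624 at the 1.5-fold rule. The cause of the other shifts was not tested.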

Other observations

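The array lists 5 further serpins under other names, which the choice by symbol left out. Serpina3b, another gene of the Serpina3 group, read 12.55 on DKO and 10.83 on CON (log2), a difference of 1.72 or 3.30-fold, with a detection p of 0 on both arrays. Serpinb6d, near Serpinb6c on chromosome 13, had raw signals of 221.8 on DKO and 154.7 on CON and a detection p of 0 on DKO and 0.00501 on CON. It differed by 1.49 or 2.81-fold after background correction, and by 0.70 (log2) in the authors' deposited table. Serpinb6e, between them, differed by 0.27. Serpina1f and Serpina3f were detected on neither array. With these 5 genes the family counted 17 detected genes of 54, with a median difference of 0.27. Of the 17, 3 were at least 2-fold higher (17.6%), against 1.05% of all detected genes. The 1 at least 2-fold lower, against 1.39% of all detected genes, was Serpina1e, which was not well above background on DKO. In the authors' deposited table Serpina3b, at 1.54 (log2), was past 2-fold, whereas Serpina3h, at 0.98, and Serpinb6d were not. Serpina3b and Serpina3h belong to a group of near-identical copies, so their probes may not be separate readings. The 5 genes were added after their values were seen.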
